A study of Malus domestica with 6 samples.

Results

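The 56 gene models described here were uneven among the pools of central fruit seeds: they were low in central replicate 1 and at least 2.5 times higher in both other central replicates. They were picked out of 63517 gene models on these central RPKM values (reads per kilobase of gene model, normalised for the size of the library). They were selected on these values alone. Members had to have central replicates 2 and 3 each at 2.5 times central replicate 1 or more, with the larger of both at 5 RPKM or more. The rule would also have left out gene models whose lateral values all lay at or below 0.75 times the smallest central value, but there were 0 of these. One further gene model that met the limits, *MdACO1*, was left out by name. The central values are therefore how the members were chosen, and they are given as a description without a test. The question put to the members was whether the level in lateral fruit seeds, which did not decide the choice of any of them under the rule, lay further in the same direction. The members were, however, chosen with earlier results of these data known.

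Seeds were dissected at 20 days after petal fall (DAPF) from Golden Delicious fruitlets of adult trees that had received no thinning treatment. Both types of fruit shared cultivar, orchard and day, and differed in position: central fruits, the largest of each cluster, and mid-sized lateral fruits, which were chosen regardless of whether they would later be shed. According to the study the lateral fruits are also younger, and an influence of their stage of development is not excluded there. Position, size and age cannot be told apart in this comparison. Several fruitlets contributed seeds to each library, and 3 central and 3 lateral pools, replicates 1 to 3 of each type, were sequenced. In such pools, fewer cells of a type and less RNA per cell cannot be told apart.

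Apple flowers open in clusters in which the central flower is usually the first. Its fruit dominates its neighbours, and part of the lateral fruits is shed early. Developing seeds are the main source of auxin in the fruit, auxin exported through the pedicel keeps the abscission zone insensitive to ethylene, and ethylene promotes shedding. The final step of ethylene synthesis is carried out by ACC oxidase, the enzyme encoded by *MdACO1*. The pools of a type are meant to be replicates, so a gene that differs several-fold among them is measured with a wide error whatever its difference between the types of seed.

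Central replicate 1, the library in which the members are low, had the fewest recovered reads of the central libraries. They numbered 21515775 there, against 30451293 in central replicate 2 and 22656469 in central replicate 3. Lateral replicate 1 had fewer still, 14238640, and lateral replicate 2 had the most of all 6 libraries, 37767724. A part of depth in the low values of the members was not tested. According to the names of the data columns, all 3 central libraries and lateral replicate 3 were sequenced in lane 7 and lateral replicates 1 and 2 in lane 8. On log2(RPKM + 0.5), the correlation across gene models between libraries of the same type ran from 0.976 to 0.987. The gene identifiers were paired with names for 0 of the 56 members in the gene table at hand, so members are given by identifier and by their values, and the seed could not be checked against marker genes.

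The members had a median of 1.98 RPKM in central replicate 1, 8.05 RPKM in central replicate 2 and 6.93 RPKM in central replicate 3. In lateral pools 1 to 3 their median was 15.5, 16.9 and 16.9 RPKM. Tests covered the 37230 gene models whose mean reached 0.5 RPKM in central or lateral fruit seeds, and over all of these the medians of the same 6 libraries lay between 5.80 and 6.17 RPKM. All 56 members were among those tested. In the median, the members stood below the gene models tested in 1 central pool and above them in every other library. For the central pools this was favoured by the rule, and the gene models tested had no limit of 5 RPKM.

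**Figure D1:**
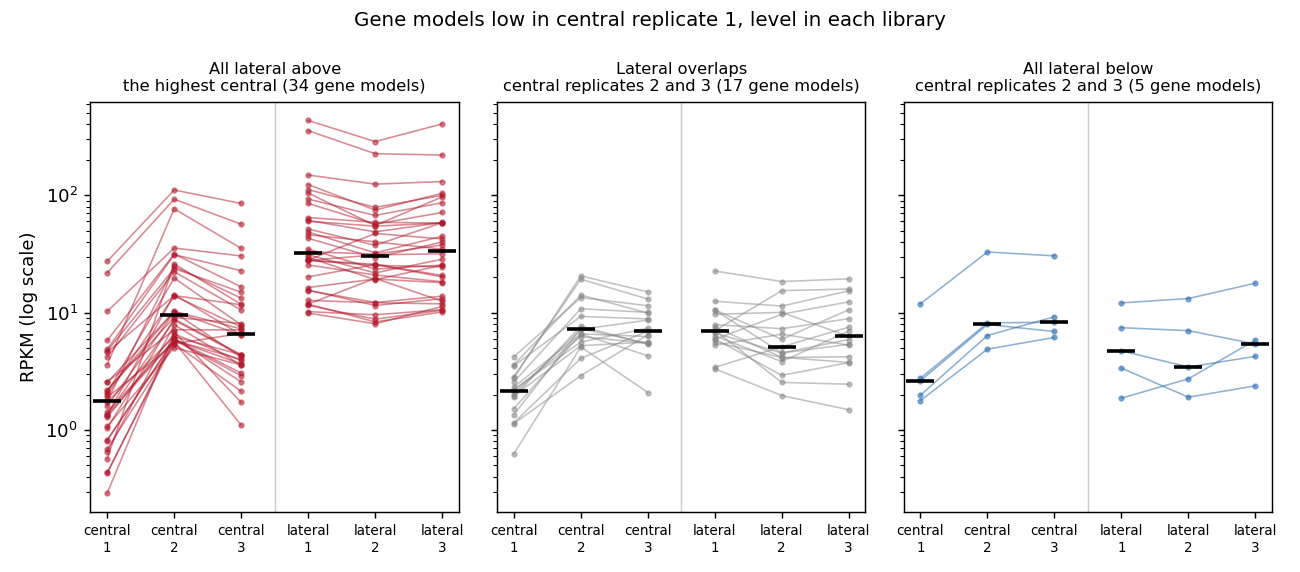
Level of the 56 gene models in each library, in RPKM on a log scale, in 3 panels by the position of their lateral values. Each set of joined points is 1 gene model, the lines only tie its values together, and the black bars are medians of the panel. In the left panel, with 34 gene models, all lateral points lie above the central points of the same gene model.

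The ratio of central replicate 2 to central replicate 1 had a median of 4.33 and ran from 2.54 to 45.6. For central replicate 3 the median ratio was 3.26 and the highest 20.7. The same ratios had a median of 1.04 and 1.003 over all gene models tested. Central replicate 2 was above central replicate 3 in 47 of the 56 members, and the median ratio between these replicates was 1.43. The limits cut through a continuous range. MDP0000343508, nearest inside the 2.5-fold limit, had 3.53, 9.30 and 8.84 RPKM in central pools 1 to 3, and MDP0000868045, nearest outside, had 37.6, 120 and 93.7 RPKM. Just under the limit of 5 RPKM, MDP0000211202 reached 4.95 RPKM in central replicate 2, while the lowest member to reach the limit, MDP0000233440, had 5.03 RPKM there. Below 5 RPKM another 968 gene models met the 2.5-fold limit.

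Reads behind the low values were few in some members. Central replicate 1 held from 3 to 516 reads per member, with a median of 30.5, against medians of 211 and 93 reads in central replicates 2 and 3. In 3 members it held 3 reads, for which the exact 95% Poisson interval, which covers counting error only, runs from 0.619 to 8.77 reads. Under 10 reads were found there in 9 members, and of these 5 had all lateral values above the highest central value, while 29 of the 47 members with 10 or more reads did so. The members were also short. Their median coding length, as recovered from the values, was 649.5 bases against 1026 bases over all gene models tested, and 42 of the 56 lay below that median.

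In lateral fruit seeds most members under these limits lay further in the direction of central replicates 2 and 3. All 3 lateral values were above the highest central value in 34 of the 56 members (60.7%), while this was so in 12.4% of all gene models tested and in 11.5% of the 20944 gene models with at least 5 RPKM in central replicate 2 or 3. In 17 members the lateral values overlapped those of central replicates 2 and 3. In the other 5 all lateral values lay below both of these replicates, a position held by 16.0% of all gene models tested. In 55 of the 56 members every lateral value exceeded central replicate 1, against 30.4% of all gene models tested, but this share rests on the low central replicate 1 that the rule asked for. The exception was MDP0000258110.

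Set against the larger of central replicates 2 and 3, so that the low replicate does not enter, the lateral mean of the members had a median log2 ratio of 0.84, or 1.79-fold. The ratio ran from -1.27 to 3.59 on the log2 scale, that is from 0.415-fold to 12.01-fold. Taken with each lateral library alone, the median was 0.95, 0.57 and 0.85 for lateral pools 1 to 3, and these values had an SD of 0.20. The median of the same ratio was -0.15 over the gene models tested and -0.14 over those with at least 5 RPKM in central replicate 2 or 3. With a level of at least 1 RPKM in place of 5 in the rule, the median over the then 432 gene models was -0.30, on the other side of 0, and 25% had all lateral values above. With a limit of 2-fold in place of 2.5-fold it was 0.18 over 108 gene models, and 48.15% had all lateral values above. Dividing by the larger of a pair of values lowers this ratio by construction. Choosing members for high values in central replicates 2 and 3 works in the same way, against a lateral level that lies further out.

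The 34 gene models with all lateral values above the highest central value had medians of 1.76, 9.59 and 6.56 RPKM in central pools 1 to 3 and of 32.03, 30.2 and 33.2 RPKM in lateral pools 1 to 3. Their lateral mean was 2.77-fold the larger central value in the median, from 1.11-fold to 12.01-fold. The other 22 started from a like level, with medians of 2.19, 7.25 and 7.17 RPKM in the central replicates, but had only 6.88, 4.84 and 5.87 RPKM in the lateral replicates, and their lateral mean was 0.748-fold the larger central value in the median. The sets were divided by their lateral values, so their distance in lateral fruit seeds is a description only.

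They also differed in the order of the central pools. Central replicate 2 exceeded central replicate 3 by a median ratio of 1.85 in the 34 and of 1.08 in the 22. Where central replicate 2 was at least 1.5 times central replicate 3, 23 of 25 members had all lateral values above the highest central value, and where it was less, 11 of 31 did. Among the 9 members with central replicate 3 at or above central replicate 2, only 1 did, MDP0000146449, with 1.90, 5.44 and 6.65 RPKM in central pools 1 to 3 and 11.8, 8.34 and 10.1 RPKM in lateral pools 1 to 3. All lateral values lay above all central ones in 12.4% of all gene models tested and in 11.5% of those with at least 5 RPKM in central replicate 2 or 3. No such share is given here for gene models with the same order of the central pools, so these counts describe the members only. The division at 1.5 was set after the values were seen and was not tested.

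**Figure D2:**
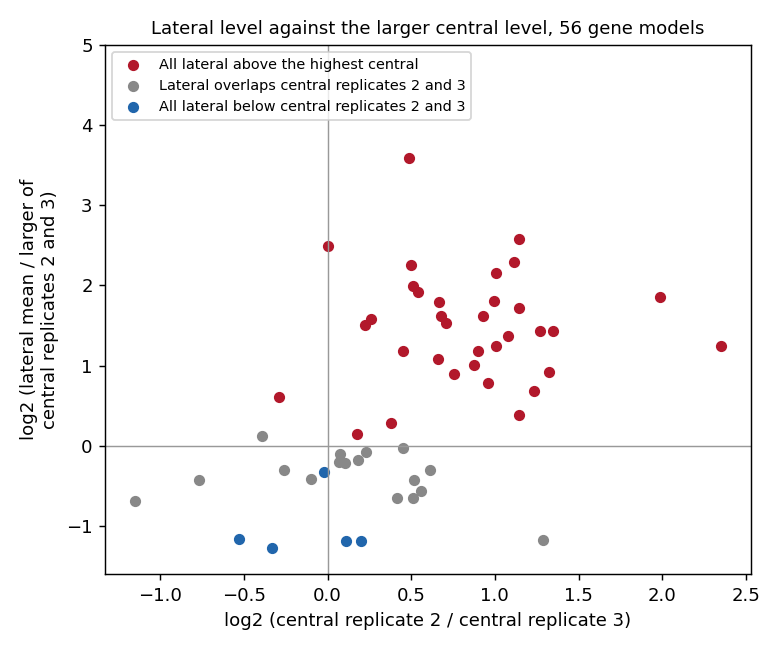
Lateral level of the 56 gene models against the balance of the central replicates. The x axis is the log2 ratio of central replicate 2 to central replicate 3, the y axis the log2 ratio of the lateral mean to the larger of both, and the colours give the position of the lateral values. Of the 9 gene models left of 0 on the x axis, where central replicate 3 was the higher, 1 had all lateral values above.

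In limma on log2(RPKM + 0.5), 23 of the 56 members (41.1%) were called higher in the lateral pools, with an adjusted p of at most 0.05 (Benjamini-Hochberg, over all gene models tested) and a fold change of at least 1.5, whereas 3.39% of all gene models were. All 23 were among the 34. Since the rule fixed a low value in 1 of the 3 central libraries, and with it both a lower central mean and a wider spread, nothing is read from this share. The median log2 fold change of the members was 1.89, from -0.67 to 4.21, beside -0.021 over all gene models tested, and their median standard error was 0.46 beside 0.17. No member was called lower, in limma on the values or on the recovered reads (voom), and 0 had a fall at an unadjusted p of at most 0.05. Called lower were 0.459% of all gene models.

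Without central replicate 1 the fit no longer holds the library on which the members were low. The median log2 fold change was then 1.18 and the median standard error 0.25, and 26 members were called higher, beside 2.46% of all gene models. One member was then called lower, MDP0000320601, beside 0.271% of all gene models, against the central replicates chosen for high values. The count of 23 fell to 12 without central replicate 3, to 10 without lateral replicate 1 and to 11 without lateral replicate 3. With the lane as a covariate, where the difference rests on lateral replicate 3 alone, 1 member was called higher, MDP0000233440, beside 1.05% of all gene models. The median log2 fold change of the members was 1.90 in that fit, beside 1.89 without the lane, and their median standard error 0.66, beside 0.46. Lateral replicate 3 itself, which shared the lane of the central libraries, lay above the highest central value in 38 of the 56 members, beside 26.5% of all gene models tested.

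MDP0000233440 had the largest rise among the members. Its 12, 79 and 42 reads in central pools 1 to 3 gave 1.08, 5.03 and 3.59 RPKM, and its 474, 1145 and 723 lateral reads gave 64.5, 58.7 and 57.9 RPKM. The lateral libraries agreed closely and lay more than an order of magnitude above the highest central one. On the RPKM scale the unevenness among central pools was thus small beside the difference between the types of seed. As ratios they were less far apart, with central replicate 2 at 4.65 times central replicate 1 and the lateral mean at 12.01 times central replicate 2. The fitted log2 fold change was 4.21 ± 0.39 (SE; limma, Benjamini-Hochberg adjusted p = 0.00069) and 3.68 without central replicate 1 (adjusted p = 0.00018 from limma). In an exact permutation test, here as for the other gene model of the rise below, 3 libraries against 3 gave a 2-sided p of 0.1, the smallest possible.

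MDP0000314777 was the most strongly expressed member in lateral fruit seeds, and the pools of central seeds spread far more widely. Its values were 3.61, 76.5 and 35.3 RPKM in central pools 1 to 3 and 433, 286 and 404 RPKM in lateral pools 1 to 3. Central replicate 2 was 21.2 times and central replicate 3 9.77 times central replicate 1, and the lateral mean was 4.89 times central replicate 2. The fitted log2 fold change was 4.04 ± 0.89 (SE; limma, Benjamini-Hochberg adjusted p = 0.040). It was 2.81 with an adjusted p of 0.0042 (limma) without central replicate 1, and the call was lost without central replicate 3 (adjusted p = 0.076 from limma) and without lateral replicate 1, 2 or 3 (adjusted p = 0.11, 0.070 and 0.11 from limma).

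The lowest log2 fold changes belonged to MDP0000320601 and MDP0000258110. MDP0000320601 had 11.9, 32.8 and 30.5 RPKM in central pools 1 to 3 and 12.1, 13.2 and 17.8 RPKM in lateral pools 1 to 3. Its lateral values were thus nearer to the low central pool than to the others. The fitted log2 fold change was -0.67 ± 0.35 (SE; limma, Benjamini-Hochberg adjusted p = 0.39), and the exact permutation test gave a 2-sided p of 0.4. Without central replicate 1 it was -1.13 (adjusted p = 0.013 from limma), but that fit leaves only the central replicates that the rule chose for their high values, which favours a fall, so nothing is read from it.

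MDP0000258110 had 2.63, 7.93 and 6.91 RPKM in central pools 1 to 3 and 1.87, 2.73 and 5.85 RPKM in lateral pools 1 to 3. Here the lateral pools were as uneven as the central ones, and lateral replicate 1, with 16 reads, lay below every other library. The fitted log2 fold change was -0.67 ± 0.44 (SE; limma, Benjamini-Hochberg adjusted p = 0.52), and the exact permutation test gave a 2-sided p of 0.3. With the lane as a covariate the value was 0.13. The other 3 members with all lateral values below central replicates 2 and 3, chosen after their values were seen, were MDP0000264709, MDP0000159395 and MDP0000923601. Their lateral mean was 0.799-fold, 0.449-fold and 0.415-fold the larger central value in the same order, and they did not pass the limits.

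In MDP0000144785 and MDP0000755183 the fitted difference between the types of seed was nearest to 0. MDP0000144785 had 1.95, 5.23 and 5.62 RPKM in central pools 1 to 3 and 5.99, 2.92 and 3.75 RPKM in lateral pools 1 to 3. Its central and lateral values overlapped, and limma gave a log2 fold change of 0.046 ± 0.37 (SE; Benjamini-Hochberg adjusted p = 0.97). MDP0000755183 had 0.629, 5.11 and 2.09 RPKM in the central and 3.32, 1.97 and 1.49 RPKM in the lateral replicates, all within the central range, and limma gave a log2 fold change of 0.066 ± 0.52 (SE; Benjamini-Hochberg adjusted p = 0.97). In both, the exact permutation test gave no smaller p than 0.8.

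**Figure D3:**
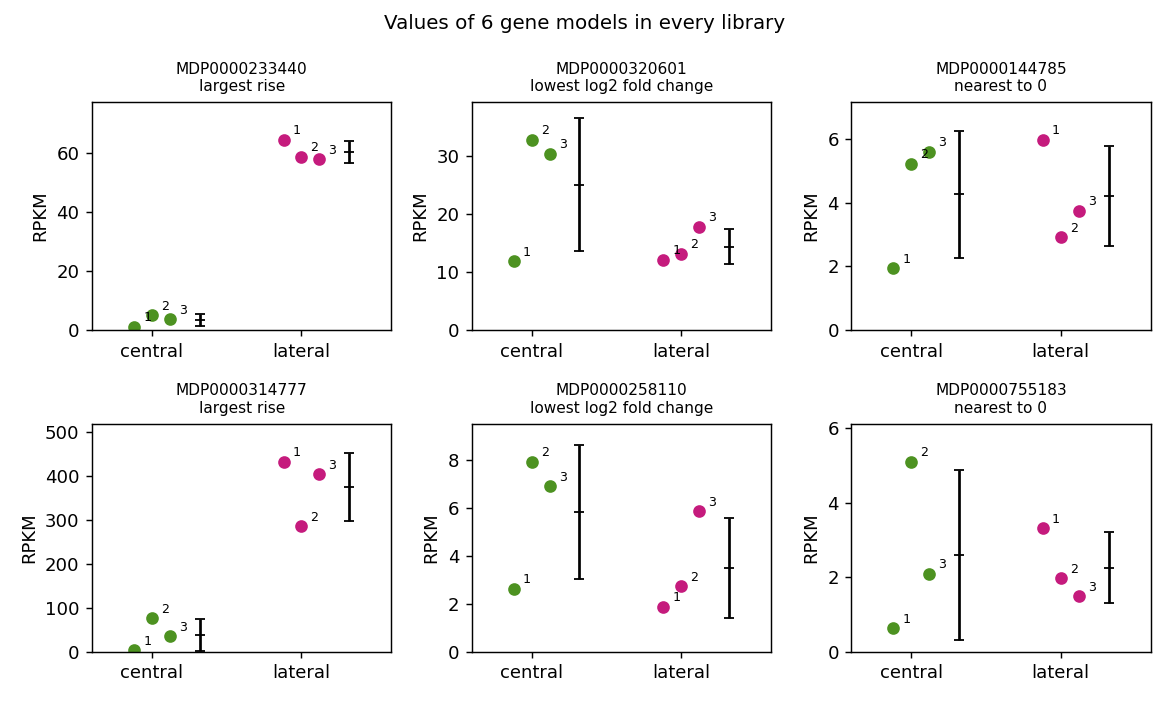
RPKM of 6 gene models in every library, with points for the central and lateral replicates, numbered, and the mean and SD of the 3 replicates beside them (n = 3). From left to right are the gene models with the largest rise, with the lowest log2 fold change and with a log2 fold change nearest to 0. In MDP0000233440 every lateral point lies above 57 RPKM and every central point below 6 RPKM, whereas the points of MDP0000144785 overlap.

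A further pair of members was chosen for their central values after these were seen. MDP0000313382 was the most uneven, with 0.571, 26.0 and 11.8 RPKM in central pools 1 to 3, from 4, 258 and 87 reads. Its lateral replicates had 33.0, 31.5 and 37.7 RPKM, so the lateral pools were nearly even and their mean was 1.31 times central replicate 2. MDP0000942516 had the highest central values, 27.3, 111 and 85.0 RPKM, and 148, 124 and 131 RPKM in the lateral replicates. All lateral values were above the central ones in both, and neither was called (limma, adjusted p = 0.28 and 0.26).

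The spread among the lateral pools is given by itself, since that among the central pools was fixed by the choice of members. The highest lateral value was 1.42 times the lowest in the median, from 1.07 to 3.13 times, and in only 2 members, MDP0000258110 and MDP0000301638, did it reach 2.5 times. Among gene models with at least 5 RPKM in central replicate 2 or 3 the median was 1.18 times, and 0.993% reached 2.5 times. The 34 members with a higher lateral level had a median of 1.39 times and none above 1.89 times, while the other 22 had a median of 1.78 times. The sets were divided by the lowest lateral value, which favours a narrow spread in the 34, and the 22 had lower lateral levels. Nothing is therefore read from this difference. Lateral replicate 1 was the highest lateral library in 36 of the 56 members and lateral replicate 2 the lowest in 33. Among gene models with at least 5 RPKM in central replicate 2 or 3, these libraries held those places in 35.5% and 37.0%.

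For the 34 members with all lateral values above, the distance from central replicate 1 to the lateral mean gives a scale on which the other central pools can be placed. Because of how these members were chosen and divided off, both pools had to lie between its ends. Their intermediate place is therefore no result, and the distances are a description. On the RPKM scale, central replicate 2 lay at a median of 31.0% of this distance, with quartiles of 24.7% and 43.0%. Central replicate 3 lay at a median of 13.4%, with quartiles of 10.5% and 22.1%. The rise of central replicate 2 over central replicate 1 was 2.08 times that of central replicate 3 in the median, and from 0.746 to 7.80 times over the 34. Most of these members shared this order of the pools, while the distances themselves ran from 6.66% to 87.2% in central replicate 2 and from 4.24% to 74.1% in central replicate 3.

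**Figure D4:**
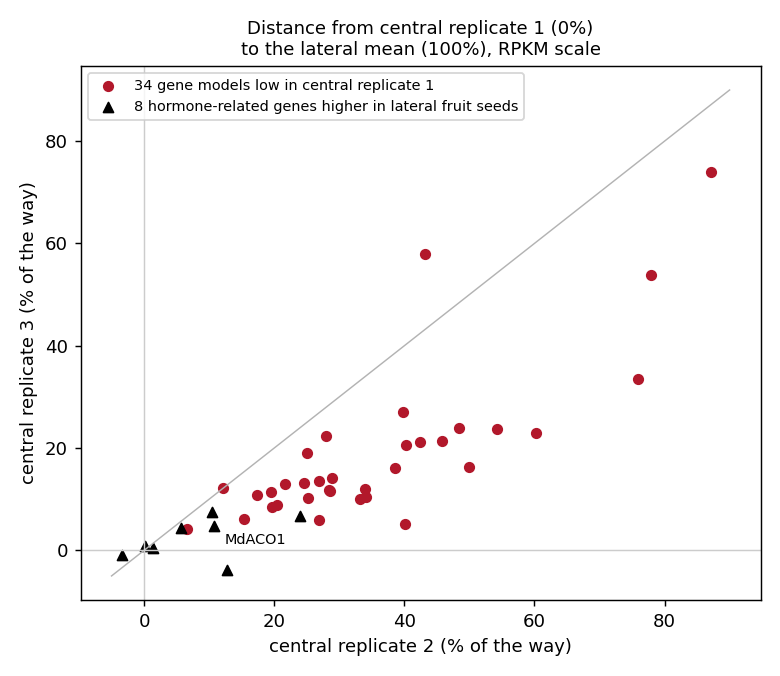
Place of central replicates 2 (x axis) and 3 (y axis) between central replicate 1 (0%) and the lateral mean (100%), in percent on the RPKM scale, with the line of equal values in grey. Points are the 34 members with all lateral values above the highest central value, and triangles are 8 hormone-related genes with a lateral mean above both central replicates. Most points lie below the line, around medians of 31.0% and 13.4%, and MdACO1 lies at 10.8% and 4.81%. The 34 points had to lie between 0% and 100% because of how they were chosen.

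The 11 hormone-related genes examined here, all named by the study but not its whole set, included genes with uneven and with nearly level central pools. *MdACO1* had 3.08, 30.7 and 15.4 RPKM in central pools 1 to 3, the same order as most members, and a lateral mean 8.46 times central replicate 2. None of the other 10 genes of this list met the 2.5-fold limit. The nearest were genes of type 2C protein phosphatases, homologues of a negative regulator of ABA signalling in *A. thaliana*. In MDP0000893203 central replicate 2 was 2.18 and central replicate 3 was 1.85 times central replicate 1, and in MDP0000231674 the same ratios were 2.98 and 1.55.

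Other genes of the list were nearly level in central fruit seeds. The ethylene response factor MDP0000848905, a putative ortholog of *A. thaliana EBP*, had 9.99, 10.3 and 12.1 RPKM in central pools 1 to 3 and 412, 172 and 278 RPKM in lateral pools 1 to 3. The putative ortholog of *GA2OX6*, MDP0000735747, which encodes a gibberellin-inactivating oxidase, had 0.716, 0.949 and 0.808 RPKM in the central and 14.4, 15.3 and 23.0 RPKM in the lateral replicates. The ethylene receptor genes *MdETR2* and *MdETR102* had central replicates 2 and 3 within 0.85 to 1.13 times central replicate 1, and their lateral mean was 0.389-fold and 0.584-fold the larger of them.

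The same order of the central pools was also counted among strongly rising genes. With at least 5 RPKM in central replicate 2 or 3, 104 gene models were called higher and rose 4-fold or more in the fit, of which 22 were members and 1 was *MdACO1*. Central replicate 2 was above central replicate 3, and that above central replicate 1, in 67 of the 104, an order found in 16.9% of the gene models with at least 5 RPKM in central replicate 2 or 3. The members and *MdACO1* are part of this count and of the medians below, so neither is separate support. The level was asked of central replicate 2 or 3 only, and a low central replicate 1 favours a 4-fold rise. The choice of the 104 thus itself favours a low central replicate 1. In the median of the 104, central replicate 2 was 1.87 times and central replicate 3 1.495 times central replicate 1, and they lay at 10.6% and 6.25% of the distance to the lateral mean. In 11 of the 104 both were within 1.2-fold of central replicate 1.

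Other ways of being uneven are given as counts, and their difference from the members was not tested. With the same limits, and *MdACO1* left out, 17 gene models had central replicate 2 lower than both other central replicates and 15 had central replicate 3 lower. All lateral values were above all central ones in 0 of the 17 and in 1 of the 15, against 34 of the 56 members. The same was so in 12.4% of all gene models tested and in 11.5% of those with at least 5 RPKM in central replicate 2 or 3. Central replicate 1 was 2.5-fold higher than both others in 6 gene models, central replicate 2 in 13 and central replicate 3 in 10, of which 0, 4 and 0 had all lateral values above. Among lateral libraries, lateral replicate 1 stood apart most often, with 51 gene models low and 59 high. All lateral values were above all central ones in 0 of the 51 and in 18 of the 59 (30.5%). The other lateral replicates stood apart in 3 to 17 gene models each way, with 0 or 1 of them above in each pattern. Lateral replicate 1 was also the shallowest library, and central replicate 1 the shallowest of the central ones. A part of depth in these counts was not tested.

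**Figure D5:**
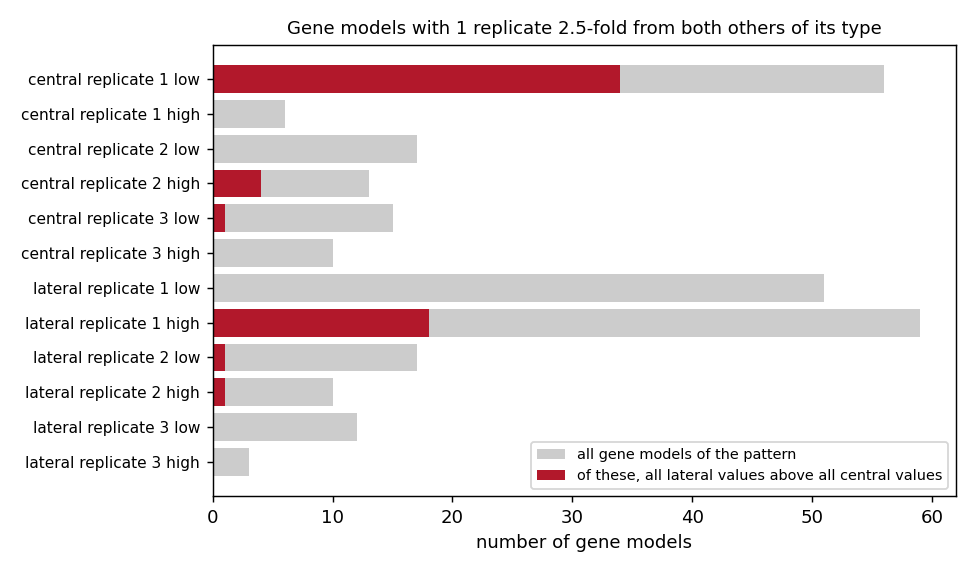
Number of gene models in which 1 replicate is at least 2.5-fold below (low) or above (high) both other replicates of its type, with the larger value at 5 RPKM or more. Grey bars count all such gene models and red bars those with all lateral values above all central values. The pattern low in central replicate 1 has 56 gene models, 34 of them in red. Lateral replicate 1 has 51 low and 59 high, with 0 and 18 in red.

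Whether the central pools differed in the age, number or condition of their seeds is not given in the sources used here, and its part in the values was not tested. Reads that map to several places are counted in these values, and near-identical gene models may therefore have reads in common. Of the members, 13 shared their recovered length with another member, but 0 pairs of equal length had values within 1.2-fold of each other in every library.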

How the data were processed

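RNA of 3 central and 3 lateral pools of seeds was analysed, grouped by the titles of the samples, and all 6 data columns were matched to samples. The RPKM values were deposited by the authors, who had trimmed and mapped the reads to version v1.0 of the apple genome and obtained the values with the CLC Genomics Workbench (program version not given in the sources used here). Quality control by FastQC is named in the submitters' processing notes. The values were not scaled between libraries.

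The members and lists were chosen with earlier results of these data known. limma 3.58.1 (R 4.3.3; lmFit, eBayes with a trend, no block) was fitted to log2(RPKM + 0.5) of gene models whose mean reached 0.5 RPKM in central or lateral fruit seeds, with Benjamini-Hochberg adjustment over all of them. The added 0.5 makes the changes of low genes look smaller. Whole reads were recovered, within 0.001, as the shortest length from 60 to 30000 bases that gave whole numbers with the mapped reads that the study states for each library; a length and its reads can be too small by a common divisor. In 99.9% of the gene models tested this length was a multiple of 3.

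Gene models named were the 2 called members with the largest rise, the 2 with the lowest and the 2 uncalled with the log2 fold change nearest to 0, those beside the limits, and hormone-related genes of the study that met the 2.5-fold limit; others are said to have been chosen later or stand for comparison. The gene table at hand (RefSeq, GDT2T_hap1) held none of the identifiers. Counts and medians were computed with Python 3.11.15 and pandas 2.3.3 and plots with matplotlib 3.10.9, and the steps were tested on simulated data. The limma p-values set the difference between the types of seed against the spread between these pools, moderated with that of other gene models. Alternatives were other pseudocounts, filters, scalings, moderation, limits of the member rule, a replicate block, the lane, voom and each library left out.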

Additional observations from a re-analysis of the deposited data

How the results depend on the processing

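The count of 23 members called higher in limma became 9 with eBayes without a trend, 15 without a filter on low values and 1 with the lane as a covariate, and ran from 10 to 30 when single libraries were left out. The cause was not tested. Other pseudocounts, a filter at 1 RPKM, both scalings and voom kept it within 1.5-fold. The count called lower was 0, and 1 without central replicate 1, so from 0 to 1 over the libraries left out.

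With other limits of the member rule, a limit of 2-fold gave 108 members, of which 35 were called higher and 52 had all lateral values above, with a median log2 ratio of the lateral mean to the larger central value of 0.18. A limit of 4-fold gave 12 members, 5 and 9 of them in the same order, and 1.18. A level of at least 1 RPKM gave 432 members, 59 and 108, and a median of -0.30, so at low levels the median lay on the other side of 0. A level of at least 10 RPKM gave 23 members, 11 and 17, and 1.18. The share with all lateral values above was thus 25% at 1 RPKM and 73.9% at 10 RPKM. When single lateral libraries were left out, the 34 became 35 and the median ran from 0.76 to 0.89. Leaving out a lateral library can only keep or raise the count of 34, so nothing is read from that count.

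The log2 fold change of MDP0000144785 turned to -0.12 with voom and -0.053 with the lane, and ran from -0.38 to 0.28 over the libraries left out. That of MDP0000755183 turned to -0.072 with voom and -0.35 with the lane, and ran from -0.52 to 0.64. MDP0000258110 changed to 0.13 with the lane. MDP0000314777 also lost its call without a trend, without a filter and with the lane.

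The replicate number has no stated meaning beyond a count. The correlations between same-numbered replicates of their deviations from the group means were 0.01, -0.12 and -0.13. The values thus gave no sign of a pairing by number, but they cannot show how the samples were taken. With the replicate number as a block, 24 members were called higher and 0 lower. Few reads in central replicate 1 limit how well the unevenness of the lowest members is fixed.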
